A study of Drosophila melanogaster with 8 samples.

Results

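Binding of the Drosophila transcription factor Ribbon (Rib), tagged with green fluorescent protein (GFP), was compared between embryos that made the fusion under the btl-GAL4 driver and embryos that made it under the trh-GAL4 driver. Members were protein-coding genes called bound: a gene was bound in a list when a peak summit lay inside it or within 500 bp of either of its ends in the RefSeq Release 6 gene table. By this rule 4932 of 13922 protein-coding genes were bound under at least 1 driver, 1651 of them under both, 3000 under btl alone and 281 under trh alone. These counts rest on 4 of the 8 samples of the series, immunoprecipitated btl replicates 1 and 2 and immunoprecipitated trh replicates 1 and 2, each pair with its own input.

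GAL4-UAS is a pair of transgenes in which a tissue-specific driver supplies the yeast activator GAL4, and GAL4 turns on whatever gene is placed behind its UAS sites. The btl embryos carried btl-GAL4 and the trh embryos carried trh-GAL4, each with a UAS transgene. The sample titles and genotypes call that transgene UAS-GFP, whereas the protocol and the file descriptions call it a rib-GFP fusion. The second reading was used, and under the first one no value below would measure Rib. All samples were whole embryos cross-linked in 1.8% formaldehyde, taken at stages 11 to 15 according to the sample characteristics and 11 to 16 according to the protocol, and a goat antibody against GFP was used. Replicates 1 and 2 of both drivers had the same library kit and the same sequencing centre, and the protocol speaks of several separate embryo collections without tying them to replicates. No immunoprecipitation from embryos lacking the fusion was analysed here, and the genotypes name no mutation of the endogenous rib gene.

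Rib is a nuclear protein with a BTB domain and a DNA-binding domain that acts in the formation of epithelial tubes, among them the trachea and the salivary gland. Breathless (btl) encodes the FGF receptor of tracheal cells, which follow its ligand branchless as branches grow out. Trachealess (trh) encodes a bHLH-PAS transcription factor that specifies tracheal cells and is also active in the salivary duct and the posterior spiracles. The drivers named after these genes therefore overlap in the trachea, and trh-GAL4 can also be active in other tissues.

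Each driver had 1 list of peaks that merged its replicates 1 and 2 and was filtered at an irreproducible discovery rate (IDR) of 0.1, so the values below have no replicate error and no test was made. There were 8693 btl regions, 692 bp wide at the median, and 3210 trh regions, 389 bp wide at the median. Fold enrichment and -log10 q are the authors' values for each peak and were used to rank and describe peaks within a list. Since the scales of the lists differ, values of both drivers set side by side are descriptions and not a difference in binding. Fold enrichment had a median of 2.87 for btl regions and 2.16 for trh regions, and -log10 q one of 22.0 for btl and 9.95 for trh. The deposited score, capped at 1000, was at that cap in 62.4% of btl regions and 32.3% of trh regions. Read depth is unknown from peak lists, and a difference in the number of cells making the fusion cannot be told apart from a difference in occupancy per cell. Intervals on shares are Wilson 95% intervals, which reflect counting error alone.

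The btl list marked far more genes, and it included most genes of the trh list. Bound genes were 4651, or 33.4% of all protein-coding genes, in btl embryos and 1932, or 13.9%, in trh embryos. Genes bound in both made up 11.9% of all genes, genes bound in btl only 21.5%, and genes bound in trh only 2.02%. Of the genes bound in btl embryos, 35.5% were also bound in trh embryos (interval 34.1 to 36.9%), and of the genes bound in trh embryos, 85.5% were also bound in btl embryos (interval 83.8 to 87.0%). These shares changed when the btl list was cut to the number of regions of the trh list. The cut also left only the stronger btl regions, so the parts of length and strength cannot be told apart. With the btl list shortened to the 3210 regions of highest fold enrichment, 1056 genes were bound in both, 837 in btl only and 876 in trh only, and 54.7% of trh genes were also bound in btl. With the 3210 btl regions of highest -log10 q, 1175 genes were bound in both, 1048 in btl only and 757 in trh only, and the share was 60.8%. At the edge of the window, 223 genes in btl embryos and 76 genes in trh embryos had their nearest summit 401 to 500 bp outside the gene, with median fold enrichments of 2.59 in btl and 2.15 in trh. Just beyond it, at 501 to 600 bp, were 196 genes in btl embryos and 108 in trh embryos, with medians of 2.84 in btl and 2.12 in trh.

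Genes bound under both drivers usually had summits at the same place. In 1325 of the 1651 genes (80.3%, interval 78.3 to 82.1%) some btl summit and some trh summit lay within 100 bp of each other, and the median distance between the nearest summits was 36 bp. In 148 genes (8.96%) the nearest summits were over 1000 bp apart, so the gene was shared and the sites were not. At a limit of 250 bp some btl and some trh summit lay together in 1423 genes (86.2%). The strongest summits, a subset of those compared, lay within 250 bp in 903 genes (54.7%, interval 52.3 to 57.1%), and in 351 of the 937 genes with 2 or more btl summits (37.5%). Among the 631 genes with a single summit in each list, 520 (82.4%) had both within 250 bp.

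The strongest genes bound in both, ranked by the mean of their percentiles of fold enrichment in the 2 lists, included genes known by CG number alone and several with known roles. CG43861 (2L:19968684-20017282, as all positions here on Release 6, dm6, counted from 1) ranked first, with fold enrichments of 7.23 in btl embryos and 4.14 in trh embryos at summits 41 bp apart inside the gene. CG12009 (3L:3291459-3299000) had 7.06 in btl and 4.15 in trh, also inside the gene. The gene gce, a bHLH-PAS receptor of juvenile hormone (X:15297766-15319074), had 6.36 in btl and 5.43 in trh. Fur1, a furin-type proprotein convertase (3R:25347431-25473058), had 6.59 in btl and 4.16 in trh at best summits 221 bp apart.

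SNF4Agamma, the gamma subunit of the energy sensor AMPK, had 12 btl summits and 8 trh summits, with strongest values of 6.16 in btl and 5.58 in trh. The gene p120ctn, a catenin of adherens junctions, had 1 summit in each list, 110 bp outside the gene in btl and 124 bp in trh, with 8.16 in btl and 3.48 in trh. CG13678 had 10.9 in btl and 3.51 in trh, and CG18294 had 8.58 in btl and 3.62 in trh, each at a single summit outside a short gene. CG30460 and CG42258 completed the 10, with 7.15 and 6.67 in btl and 3.91 and 3.72 in trh. All 10 genes also held a summit in btl replicate 3, which was made with another kit at another centre. Of all genes bound in both 92.5% did.

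**Figure D1:**
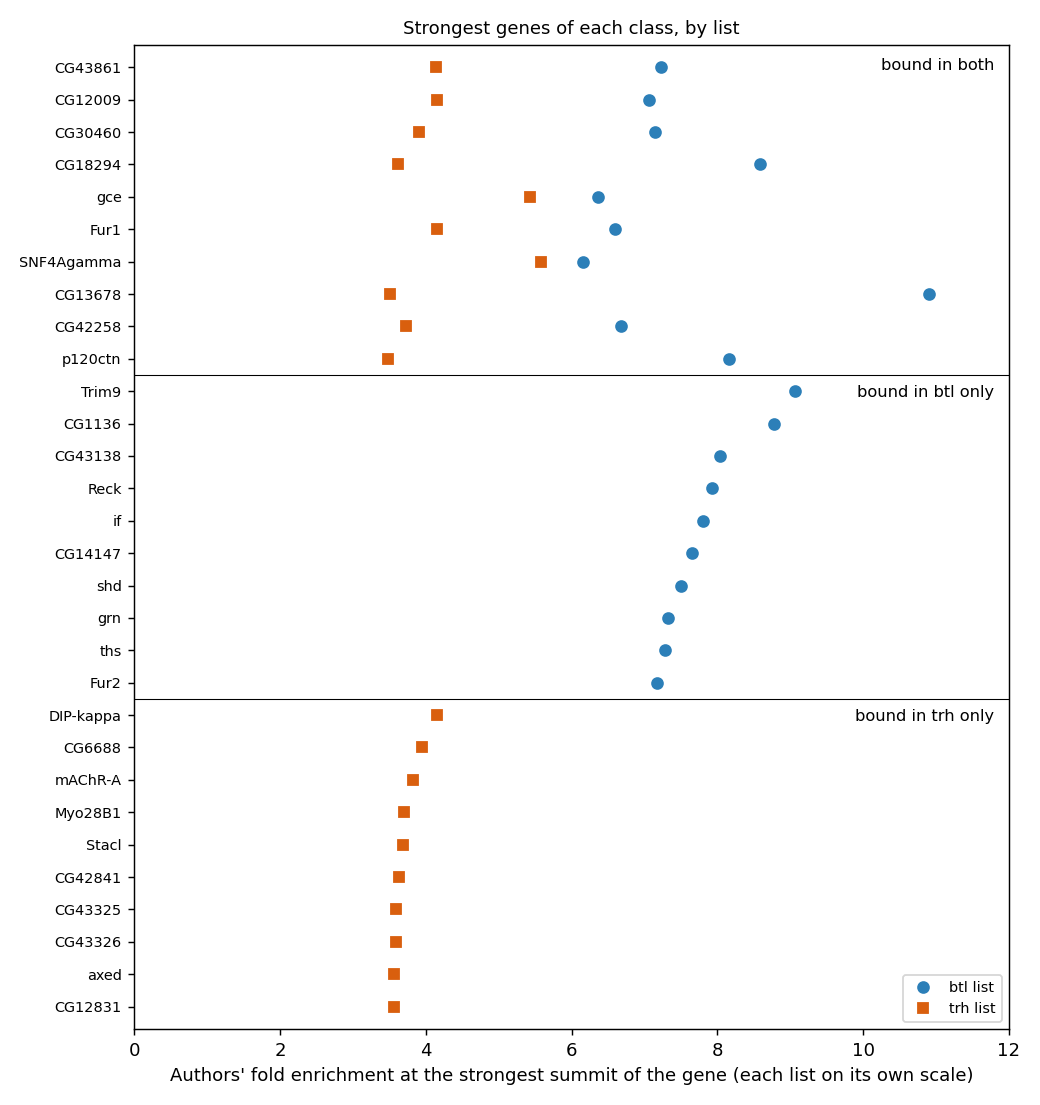
The 10 named genes of each class (rows) against the authors' fold enrichment at the strongest summit of the gene (horizontal axis), with circles for the btl list and squares for the trh list. Genes bound in both sit at 6.16 to 10.9 in btl and 3.48 to 5.58 in trh, genes bound in btl only at 7.18 to 9.06, and genes bound in trh only at 3.56 to 4.15.

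Of the genes bound in btl only, 2940 had no trh region touching their window, and the 10 strongest of these included an FGF ligand, an integrin subunit and an enzyme of hormone synthesis. Trim9, a ubiquitin ligase that acts in axon guidance (2L:10544883-10628054), had 6 btl summits with a strongest fold enrichment of 9.06 at the 99.8th percentile of the list. The FGF-family ligand gene ths, which acts on the receptor Heartless, had 9 summits and a strongest value of 7.28. The gene if, which encodes the integrin subunit alphaPS2 (X:16752189-16783434), had 5 summits and 7.80, and shd, the enzyme that converts ecdysone into its active form (3L:14614458-14622205), had 2 summits and 7.50. The GATA transcription factor gene grn had 7.32, and Fur2, a second furin-type convertase, had 7.18.

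Reck, whose mammalian counterpart inhibits matrix proteases, had 5 summits and 7.92, and the genes CG1136, CG43138 and CG14147 had 8.77, 8.04 and 7.65. The strongest summit of CG43138 also marked CG32719, so that site does not single out a gene. In btl replicate 3 each of these 10 genes had at least 1 summit, with strongest values from 2.52 (if) to 5.22 (grn). Of all genes bound in btl only 79.0% had one.

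Of the 281 genes bound in trh only, 241 had no btl region touching their window. DIP-kappa, an immunoglobulin-domain protein of the neuronal surface (2L:13676860-13717320), led with a fold enrichment of 4.15 at 1 summit inside the gene, and the nearest btl summit was 21521 bp away from that summit. CG6688 had 3.94, and mAChR-A, a muscarinic acetylcholine receptor, had 2 trh summits with a strongest value of 3.82. Myo28B1, an unconventional myosin (2L:7666047-7689459), had 3.70, Stacl, an adaptor related to the Stac proteins of vertebrates, had 3.68, and axed, which acts in axon degeneration (3L:6609325-6619113), had 3.57. Of the 10, mAChR-A alone held a summit in btl replicate 3, while 129 of all 281 genes bound in trh only (45.9%) did.

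CG43325 and CG43326 overlap and were marked by the same trh summit at 3.59, so they are not separate observations. CG42841 had 3.62, and CG12831 had 3.56 at a summit that also marked CG12836. Over all 281 genes the shortest distance from any trh summit of the gene to a btl summit had a median of 7820 bp (quartiles 2392 and 15499 bp). It was within 1000 bp in 31 genes and beyond 10000 bp in 114. A btl region touched the window of 40 of the 281 genes bound in trh only (14.2%, interval 10.6 to 18.8%). For trh regions this held in 60 of the 3000 genes bound in btl only (2.00%). The btl list had more and wider regions, and their part in this difference was not tested.

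Within the btl list shared genes had the higher median in both columns, and within the trh list the 2 columns ran in opposite directions. The strongest btl summit had a median fold enrichment of 3.78 in genes bound in both and 2.62 in genes bound in btl only, and a median -log10 q of 42.4 and 21.0 in the same order. In the trh list the strongest summit had a median fold enrichment of 2.22 in genes bound in both and 2.33 in genes bound in trh only, whereas the median -log10 q was 10.7 in both and 9.31 in trh only. Since a gene with several summits offers more chances of a strong one, the medians were also taken over genes with 1 summit in the list. They were then 3.11 (714 genes in both) and 2.52 (2487 genes in btl only) in the btl list, and 2.07 (1099 genes in both) and 2.31 (264 genes in trh only) in the trh list.

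**Figure D2:**
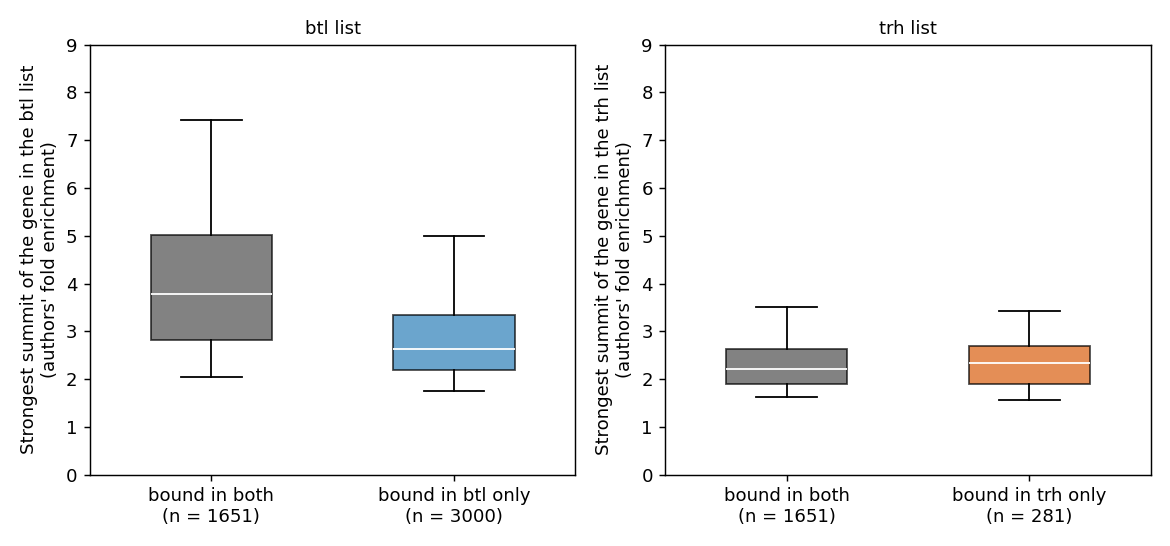
Authors' fold enrichment at the strongest summit of each gene (vertical axis), in the btl list (left) for genes bound in both and in btl only, and in the trh list (right) for genes bound in both and in trh only. Boxes span the quartiles, white lines are medians (3.78 and 2.62 in btl, 2.22 and 2.33 in trh) and whiskers reach the 5th and 95th percentiles of genes.

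Shared genes were long. The median gene length was 10039 bp for genes bound in both, 3241 bp in btl only, 3511 bp in trh only and 1686 bp in neither. The genes were divided by length into 4 bins of equal size. Among the longest (5000 bp or more) 32.7% were bound in both, 30.0% in btl only and 3.02% in trh only, and among the shortest (up to 1178 bp) these shares were 2.18%, 11.5% and 1.01%. The share of trh genes also bound in btl was 68.5%, 80.2%, 72.8% and 91.6% across the bins from short to long, and the share of btl genes also bound in trh was 16.0%, 21.0%, 22.6% and 52.2%. Longer windows collect more summits by construction, and the part of length in the other results was not tested.

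The number of btl summits in a gene followed the same order. Of 3201 genes with 1 btl summit, 22.3% were also bound in trh, against 47.7% of 671 genes with 2, 74.2% of 508 genes with 3 to 5 and 88.6% of 271 genes with 6 or more. The median lengths of these genes were 2916, 7039, 18425 and 49048 bp. Summits lay within 500 bp of a gene end in 71.7% of genes bound in both and 84.3% of genes bound in btl only by btl summits. By trh summits these shares were 57.2% in both and 76.2% in trh only. Every btl summit also marked another gene in 30.3% of genes bound in both and 58.1% of genes bound in btl only. For trh summits this held in 32.1% of genes bound in both and 44.8% of genes bound in trh only.

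The list of btl replicate 3, which took no part in choosing the classes, gave a further reading of them. It held 17149 summits in 10205 regions, and 5535 of all 13922 protein-coding genes were bound in it. A replicate 3 summit was found in 1527 genes bound in both (92.5%, interval 91.1 to 93.7%), 2370 genes bound in btl only (79.0%, 77.5 to 80.4%), 129 genes bound in trh only (45.9%, 40.2 to 51.8%) and 1509 genes bound in neither (16.8%, 16.0 to 17.6%). In the longest genes the shares were 96.4% in both, 85.7% in btl only, 48.6% in trh only and 27.3% in neither. In the shortest genes they were 73.7%, 68.8%, 22.9% (8 of 35 genes) and 8.32% in the same order. The share of genes bound in trh only thus fell between those of genes bound in btl and of genes bound in neither in each length bin. Genes that share a summit are not separate observations, so the intervals are too narrow to serve as a test. Replicate 3 is itself a btl sample, and its driver, kit and centre cannot be told apart in this comparison with trh.

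**Figure D3:**
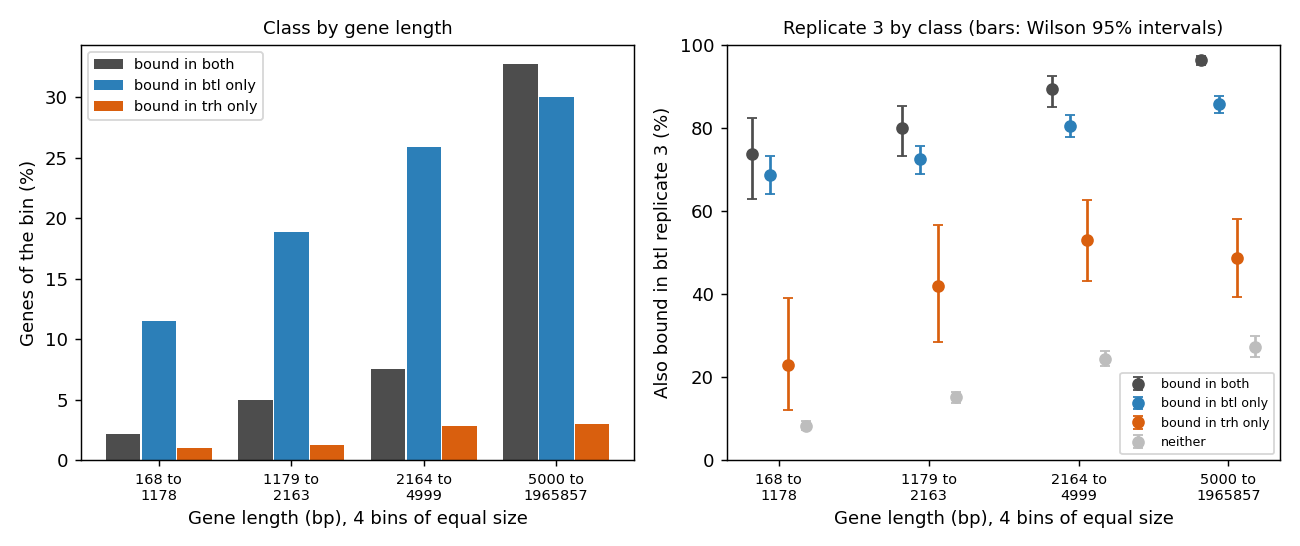
Left, the share of genes in each of 4 bins of gene length (horizontal axis, bp) that was bound in both, in btl only and in trh only. Right, the share of each class, and of genes bound in neither, that also held a summit in btl replicate 3, with Wilson 95% intervals: over all lengths 92.5%, 79.0%, 45.9% and 16.8% in that order.

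Of 17 transcription factors of the trachea, 8 were bound in both, 6 in btl only and none in trh only, beside 11.9%, 21.5% and 2.02% of all genes. The median length of these 17 genes was 22120 bp, and of all genes of 5000 bp or more 32.7% were bound in both and 30.0% in btl only. The trh gene itself (3L:366524-392633) had 2 summits in each list, with strongest fold enrichments of 4.57 in btl and 2.46 in trh at positions 10 bp apart. The rib gene had 3 summits in btl and 2 in trh, with strongest values of 3.34 in btl and 1.87 in trh at positions 3 bp apart, which were the 66.3th and 25.0th percentiles of their lists. The ETS activator gene pnt, downstream of receptor tyrosine kinases, had 18 btl summits up to 5.63 and 2 trh summits up to 2.77.

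The BTB factor gene lola had strongest values of 3.82 in btl and 1.90 in trh at summits 7 bp apart, and ttk, another BTB factor, had 2.62 in btl and 1.94 in trh at summits 4 bp apart. The gene tgo, which encodes the dimerisation partner of Trh, and the zinc finger factor esg were bound in btl only, at 2.16 and 2.28. So were the nuclear receptor genes kni (2.29) and knrl (3.17) and the epithelial factor grh (3.45). The genes vvl, salm and dysf were bound in neither list. In btl replicate 3, however, 16 of the 17 genes held a summit, among them vvl with 2, beside 5535 of all 13922 protein-coding genes.

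The FGF pathway, which guides tracheal branching, had 5 of 13 genes bound in both, 7 in btl only and none in trh only, beside 11.9%, 21.5% and 2.02% of all genes. The median length was 21468 bp, and of all genes of 5000 bp or more 32.7% were bound in both and 30.0% in btl only. The receptor gene btl (3L:14075772-14083229) had 3 summits in btl embryos, the strongest at 8.04, and 1 summit in trh embryos at 3.10. The nearest of these lay 31 bp apart, and the strongest lay 2405 bp apart. The ligand gene bnl had 4 btl summits up to 5.55 and no trh summit. The gene stumps, whose product is an adaptor that the receptor needs, had 10 btl summits up to 6.98 and 3 trh summits up to 3.11. The ligand gene pyr, like ths, was bound in btl only, with 4 summits up to 5.87, as was the mesodermal receptor gene htl at 2.53. The feedback inhibitor sty had 2.29 in btl and 1.45 in trh, and its nearest summits were 1941 bp apart.

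The EGF receptor pathway had 8 of 13 genes bound in both, 2 in btl only and none in trh only, beside 11.9%, 21.5% and 2.02% of all genes. The median length was 16810 bp, and 32.7% of all genes of 5000 bp or more were bound in both. The ligand gene spi had strongest values of 4.10 in btl and 1.54 in trh at summits 18 bp apart, and vn, another ligand gene, had 5.62 in btl and 2.07 in trh. S, which encodes the carrier Star that exports Spitz, had 3.12 in btl and 1.85 in trh. The receptor gene Egfr, with 6 btl summits up to 3.26, and the inhibitor gene aos, with 2.66, were bound in btl only. The genes rho, kek1 and Cbl were bound in neither. A replicate 3 summit was held by 12 of the 13 genes of the list, beside 5535 of all 13922 genes.

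The Dpp pathway was the 1 signalling list with a gene bound in trh only. Of its 14 genes, 5 were bound in both, 4 in btl only and 1 in trh only, beside 11.9%, 21.5% and 2.02% of all genes. The median length was 5502 bp. Of all genes of 5000 bp or more, 32.7% were bound in both, 30.0% in btl only and 3.02% in trh only. The receptor gene tkv had 13 btl summits up to 5.76 and 2 trh summits up to 1.97. The gene shn, a zinc finger cofactor of the pathway, had 17 btl summits up to 5.18 and 10 trh summits up to 5.84, with the strongest 3 bp apart. Its trh value stood at the 99.97th percentile of the trh list and its btl value at the 91.9th of the btl list. The repressor gene brk, which acts on Dpp targets, had 2 trh summits up to 1.45 and no btl summit, with the nearest btl summit 2621 bp away and a replicate 3 summit at 4.48. The trh value of brk stood low in the trh list, which had a median of 2.16 and a minimum of 1.23. The ligand gene dpp, with 5 btl summits up to 4.35, was bound in btl only.

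The remaining signalling lists are read against the same shares of all genes and against genes of like length. Their median lengths were 14278 bp (Wingless), 19124 bp (Notch), 4940 bp (Hedgehog) and 7364 bp (JAK/STAT). Of all genes of 5000 bp or more, 32.7% were bound in both and 30.0% in btl only. Of those of 2164 to 4999 bp, 7.54% were bound in both and 25.9% in btl only. The Wingless list had 3 of 13 genes bound in both and 5 in btl only, and its receptor genes fz and fz2 had 18 and 22 btl summits and 9 and 3 trh summits. The Notch list had 3 of 13 in both and 4 in btl only. N, the receptor gene, had 10 btl summits up to 5.37 and no trh summit, and the inhibitor gene numb had 6.63 in btl and 3.22 in trh at positions 2 bp apart. The Hedgehog list had 3 of 9 in both and 2 in btl only, and the JAK/STAT list had 2 of 7 in both, Stat92E and Socs36E. None of these 4 lists held a gene bound in trh only.

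Of 8 Hox genes, 2 were bound in both and 5 in btl only, beside 11.9% and 21.5% of all genes. Scr, which specifies the salivary gland segment, had 3.03 in btl and 2.33 in trh at summits 2 bp apart, and Ubx had 7 btl summits up to 5.25 and none in trh. The 9 pair-rule genes were bound in btl only in 2 cases (hry at 1.44 and opa at 2.46) and in trh in none. The median gene length was 2533 bp in the pair-rule list and 30563 bp in the Hox list. Among all genes of 5000 bp or more 32.7% were bound in both and 30.0% in btl only. Among those of 2164 to 4999 bp the shares were 7.54% and 25.9%.

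The salivary gland list, from an organ whose duct cells also use trh, had 6 of 16 genes bound in both, 3 in btl only and 2 in trh only. The shares of all genes were 11.9%, 21.5% and 2.02%. The median length was 7822 bp, and among all genes of 5000 bp or more the shares were 32.7%, 30.0% and 3.02%. CrebA, the activator of secretory pathway genes, had 6 summits in each list, with strongest values of 4.70 in btl and 3.14 in trh. The gene ps, an RNA-binding protein of the salivary gland, had 5 btl summits up to 3.67 and 8 trh summits up to 3.02. PH4alphaSG2, a prolyl hydroxylase of the salivary gland, was bound in trh only at 3.42, the 95.6th percentile of the trh list, and sens, a zinc finger factor, at 1.95. Neither of these 2 held a replicate 3 summit. The gene fkh, a main factor of salivary gland fate, was bound in btl only at 2.75, sage was bound in neither, and 5 of the 16 genes were bound in neither list.

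Among genes of the chitinous lumen, 11 of 16 were bound in both, 2 in btl only and none in trh only, beside 11.9%, 21.5% and 2.02% of all genes. The median length was 7748 bp, and of all genes of 5000 bp or more 32.7% were bound in both and 30.0% in btl only. The chitin synthase gene kkv had 4.79 in btl and 1.72 in trh, with nearest summits 17 bp apart. The zona pellucida proteins of the luminal matrix had strong values in both lists: pio had 5.87 in btl and 3.83 in trh at summits 7 bp apart, and dpy had 6.30 in btl and 3.14 in trh. The gene exp, which acts in the placing of chitin synthesis, had 8 btl summits up to 8.92 and 2 trh summits up to 2.65. Gasp, a secreted chitin-binding protein, stood low in its btl list and high in its trh list, with 1.70 in btl and 3.10 in trh, the 3.26th and 92.0th percentiles, although its strongest summits were 2438 bp apart. The chitin deacetylase gene serp was bound in both (4.56 in btl and 1.97 in trh) and its partner verm in btl only (3.29). The genes rtv, Cht2 and Muc4B were bound in neither. A replicate 3 summit was held by 14 of the 16 genes of the list, beside 5535 of all 13922 genes.

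Further matrix lists consisted of short genes. Of 48 Osiris and Tweedle genes, 5 were bound in both, 5 in btl only and 1 (Osi13, at 2.48) in trh only, and of 92 cuticle protein genes 2 were bound in both, 12 in btl only and none in trh only. The median lengths were 1323.5 bp for Osiris and Tweedle genes and 883.5 bp for cuticle protein genes. Among all genes of 1179 to 2163 bp, 174 of 3483 were bound in both, 656 in btl only and 43 in trh only, and among those up to 1178 bp the shares were 2.18%, 11.5% and 1.01%. Osi18 had 7.33 in btl and 2.62 in trh at summits 3 bp apart, and Cpr62Ba had 7.75 in btl and 3.28 in trh.

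Genes of epithelial structure came in 3 lists of mostly long genes. Of 10 genes of apical polarity 5 were bound in both and 2 in btl only, of 19 septate junction genes 9 were bound in both and 4 in btl only, and of 13 genes of the actomyosin and adherens junction list 4 were bound in both and 6 in btl only. None was bound in trh only. The median lengths were 18988, 10472 and 9910 bp in that order, and the shares in both are to be read against 11.9% of all genes and 32.7% of genes of 5000 bp or more. Moe, which links actin to the membrane, had 7 btl summits up to 8.39 and 6 trh summits up to 3.02, with the strongest 37 bp apart. The gene scrib had 10 btl summits up to 6.60 and 3 trh summits up to 2.82, Fas3 had 10 up to 6.58 in btl and 4 up to 2.69 in trh, and the formin gene Fhos had 6 up to 8.10 in btl and 4 up to 2.54 in trh. The E-cadherin gene shg was bound in btl only at 3.10, and arm and alpha-Cat were bound in neither.

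Genes of cytoplasmic ribosomal proteins, named in the title of the series, included 7 bound in trh only, the highest count of any list, though not the highest share. Of 86 such genes, 19 were bound in both, 22 in btl only and 7 in trh only, beside 11.9%, 21.5% and 2.02% of all genes, and the median length of these genes was 1344.5 bp. Among all 3483 genes of 1179 to 2163 bp, 174 were bound in both, 656 (18.8%) in btl only and 43 (1.23%) in trh only. The 19 shared genes had nearest summits between 3 bp (RpS27A) and 182 bp (RpS10b) apart. Their strongest values ran from 1.63 (RpL7) to 6.05 (RpS10b) in btl and from 1.58 (RpS3A) to 2.48 (RpL4) in trh.

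The 7 ribosomal protein genes bound in trh only were RpL35A (2.05), RpL38 (2.33), RpL9 (1.84), RpLP1 (1.46), RpS16 (1.54), RpS18 (1.71) and RpS28b (1.66), given with their trh fold enrichments. Of these, RpL38 alone exceeded the trh list median of 2.16, and the list minimum was 1.23. RpLP1 stood at the 1.37th percentile and had the same trh fold enrichment and -log10 q as its neighbour CG13690. RpL35A, RpLP1, RpS16 and RpS28b held a replicate 3 summit, with RpS28b at 7.09, and RpL38, RpL9 and RpS18 did not. The nearest btl summit lay between 1454 bp (RpLP1) and 78923 bp (RpL38) away. Among genes bound in btl only, RpS21 was strongest at 4.08 and RpL41 weakest at 1.76. At the 19 shared pairs of regions that marked a ribosomal protein gene, the median rank shift, btl percentile minus trh percentile among all shared pairs, was 4.29 points in fold enrichment and -23.0 points in -log10 q. The medians of the 2 columns thus had opposite signs.

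Other genes of protein synthesis are set beside the shares of all genes (11.9% in both, 21.5% in btl only and 2.02% in trh only). Of 53 translation factors, 8 were bound in both, 19 in btl only and 3 in trh only, and of 18 cytoplasmic tRNA synthetases 2 were bound in both, 10 in btl only and none in trh only. The factor eEF1beta had 3.64 in btl and 2.79 in trh at summits 20 bp apart, and MetRS had 6.40 in btl and 3.23 in trh. The translation factors bound in trh only were eIF4A (1.80), eIF4G1 (2.40) and eIF4H1 (1.30), and a btl summit lay 1149 bp from that of eIF4A. The 73 mitochondrial ribosomal protein genes had 1 bound in both, 14 in btl only and 2 in trh only.

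The secretory pathway list had 4 of 37 genes bound in both, 10 in btl only and 1 in trh only (Srp19, at 1.74). This list and those below are read against 11.9%, 21.5% and 2.02% of all genes. Sec24AB, a coat protein of export vesicles, had 3.59 in btl and 2.16 in trh at summits 17 bp apart. Hsc70-3, the chaperone BiP of the endoplasmic reticulum, had 3.06 in btl and 2.70 in trh with nearest summits 2081 bp apart. Of 48 proteasome genes 1 was bound in both and 13 in btl only, of 33 genes of the vacuolar proton pump 3 were bound in both, 6 in btl only and 1 in trh only, and of 84 genes of oxidative phosphorylation 5 were bound in both and 21 in btl only.

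**Figure D4:**
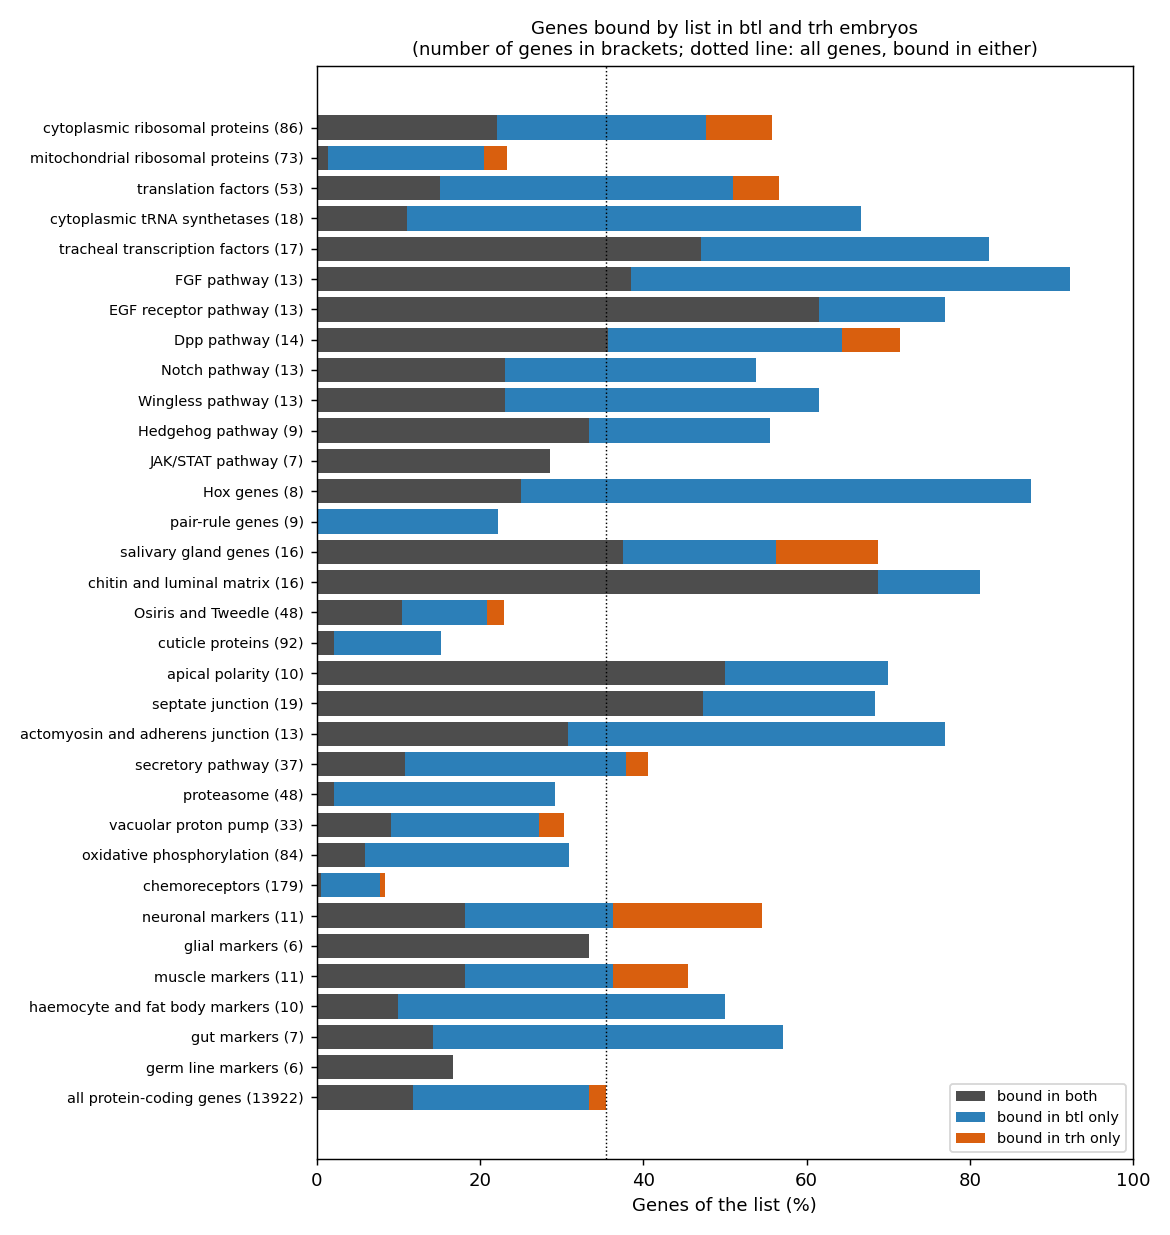
Share of the genes of each list (horizontal bars, in %, number of genes in brackets) bound in both, in btl only and in trh only, with all protein-coding genes in the lowest bar and a dotted line at their total. The FGF pathway, Hox, tracheal transcription factor and chitin lists reach furthest beyond the line, and chemoreceptors and cuticle proteins fall furthest short of it. The line takes no account of gene length.

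Markers of cell types outside the airway were also bound, and none of these lists was without bound genes. Over all genes 11.9% were bound in both, 21.5% in btl only and 2.02% in trh only. Of 11 neuronal markers, 2 were bound in both (brp and para), 2 in btl only and 2 in trh only (fne at 2.20 and Rbp9 at 2.67, both RNA-binding proteins). Of 11 muscle markers, 2 were bound in both (Mef2 at 6.77 in btl and 2.70 in trh, and how), 2 in btl only and 1 in trh only (Mlc2 at 1.90). Glial markers had 2 of 6 bound in both, haemocyte and fat body markers 1 of 10 in both and 4 in btl only, gut markers 1 of 7 in both and 3 in btl only, and germ line markers 1 of 6 in both. The glial factor gene repo, the myosin gene Mhc, the haemocyte gene Hml and the germ line gene vas were bound in neither. Peak lists do not show whether a gene is expressed, so the tissue of the fusion could not be checked against markers. The 179 chemoreceptor genes had 1 bound in both, 13 in btl only and 1 in trh only, and the 1 in both, Ir31a, had the same values as RpS27A (2.20 in btl and 1.86 in trh) at a summit that marks both genes.

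Regions present in both lists were paired 1 to 1 to ask whether their order of strength was the same under the 2 drivers. There were 2190 such pairs, which left 6503 btl regions and 1020 trh regions unpaired. Summits lay within 100 bp in 1819 pairs (83.1%) with a median distance of 39 bp, and over 500 bp apart in 134. At the pairs the median fold enrichment was 3.24 in btl and 2.13 in trh, and the median -log10 q was 35.9 in btl and 10.2 in trh. The score was at its cap in 80.4% of pairs in btl and 35.0% in trh. Each region was then given its percentile among the pairs alone. The lengths of the lists still decide which regions form pairs.

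The order of regions agreed only in part. Spearman's rho over the 2190 pairs was 0.409 for fold enrichment and 0.161 for -log10 q. Percentiles differed by more than 25 points in 912 pairs for fold enrichment (41.6%, interval 39.6 to 43.7%), with 463 ranked higher in btl and 449 higher in trh, and in 1097 pairs for -log10 q (50.1%, interval 48.0 to 52.2%), with 540 higher in btl and 557 higher in trh. The median absolute shift was 20.2 points for fold enrichment and 25.0 points for -log10 q. Shifts over 50 points occurred in 267 pairs (12.2%) and 446 pairs (20.4%). Of the 219 pairs above the 90th percentile of btl by fold enrichment, 56 were also above that of trh, and by -log10 q 46 of 219 were.

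Both columns usually shifted together. They are 2 measures of the same peaks, with a rho of 0.750 over the btl list and 0.561 over the trh list. The 2 shifts are therefore not separate evidence. The shifts of fold enrichment and -log10 q had a rho of 0.880 across pairs, 368 pairs shifted over 25 points towards btl in both columns and 368 towards trh, and 311 pairs (14.2%) had shifts of opposite sign. The shift of fold enrichment had a rho of 0.358 with the width of the btl region and 0.0155 with the width of the trh region. Pairs ranked higher in btl had a median btl width of 1169 bp, pairs ranked higher in trh 624 bp, and pairs within 25 points 874.5 bp, while the median trh widths of these groups were 411, 411 and 400 bp. The part of width in the shifts was not tested. By location, the median shift of fold enrichment was 0.43 points at 684 pairs near gene ends, 0.39 at 1204 pairs in gene bodies and -3.96 at 302 pairs outside genes, with quartiles between -23.7 and 21.1 points.

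Replicate 3 regions were found at 457 of the 463 pairs ranked higher in btl by fold enrichment (98.7%, interval 97.2 to 99.4%), 345 of the 449 ranked higher in trh (76.8%, 72.7 to 80.5%) and 1179 of the 1278 within 25 points (92.3%, 90.7 to 93.6%). The median fold enrichment of the replicate 3 regions was 4.38, 3.25 and 3.90 in these groups. The groups were formed in part by btl rank, and their median btl fold enrichments were 4.56, 2.53 and 3.24 in the same order. Replicate 3 is a btl sample too, and the part of btl strength in these shares was not tested.

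**Figure D5:**
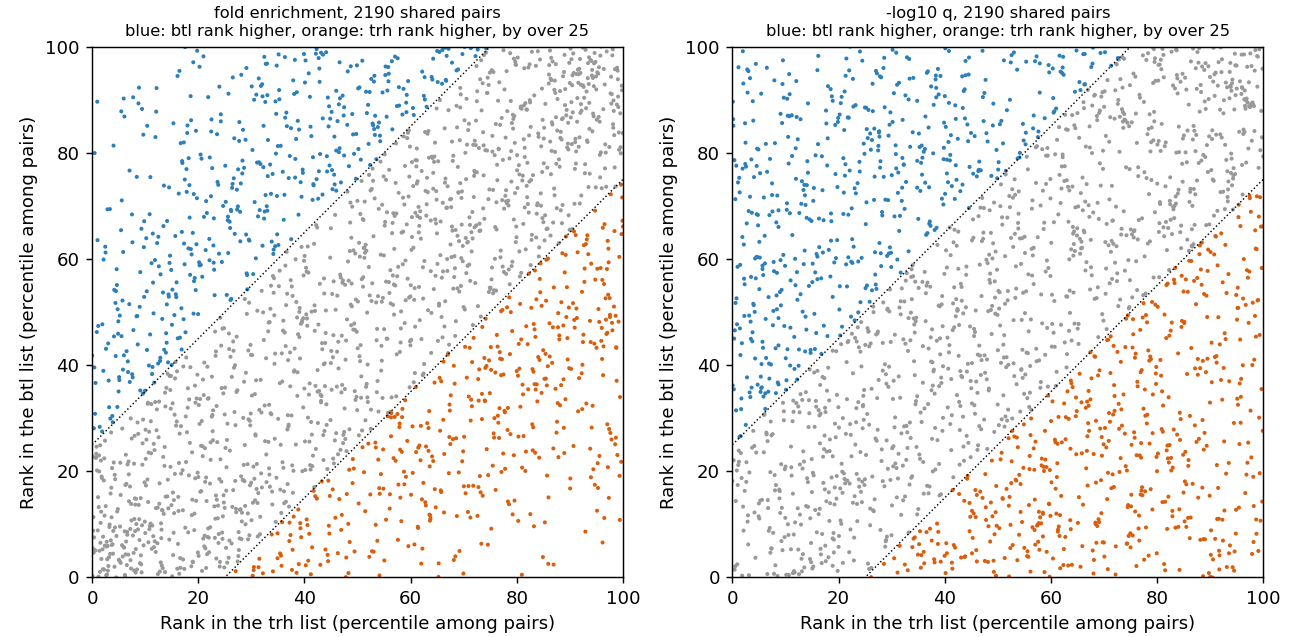
Percentile of each of the 2190 shared pairs in the btl list (vertical axis) against its percentile in the trh list (horizontal axis), both among the pairs, for fold enrichment (left) and -log10 q (right). Dotted lines mark a difference of 25 points, beyond which lie 463 pairs ranked higher in btl and 449 ranked higher in trh on the left, and 540 and 557 on the right.

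Pairs with the largest shifts towards btl lay at genes of several kinds. At grp, the checkpoint kinase Chk1, and the overlapping window of squ, a gene of the piRNA pathway, fold enrichment was 5.85 in btl and 1.45 in trh, a shift of 88.7 points, and -log10 q was 137 in btl and 4.49 in trh, a shift of 97.2 points. The replicate 3 region there had 11.1. The gene zfh2, a zinc finger homeodomain factor on chromosome 4, had 5.92 in btl and 1.60 in trh, and cnc, the relative of Nrf2, had 5.96 in btl and 1.63 in trh at summits 18 bp apart. Eip75B, an ecdysone-induced nuclear receptor, had 10.5 in btl and 1.78 in trh at summits 29 bp apart. The other 2 of the 6 were at CG4456 with Hsp22, a small heat shock protein (6.23 in btl and 1.65 in trh), and at kst, the heavy spectrin of the apical membrane, with Drsl6 (5.64 in btl and 1.59 in trh).

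By -log10 q the pairs furthest towards btl also included nkd, a Wingless antagonist (106 in btl and 4.06 in trh), Drak, a kinase that acts on myosin (103 and 4.83), kmr (102 and 4.87), CG14096 (109 and 5.22) and sm, an RNA-binding protein (93.8 and 4.55). All of these pairs had a replicate 3 region, as did 534 of the 540 pairs ranked higher in btl by -log10 q.

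Some pairs with the largest shifts towards trh had summits close together, and at others the summits lay over 500 bp apart. At dl, the NF-kappaB factor Dorsal, fold enrichment was 2.01 in btl and 4.33 in trh at summits 16 bp apart, a shift of -88.6 points, and -log10 q was 10.1 in btl and 39.6 in trh, a shift of -94.1 points. Tie, a receptor tyrosine kinase, had 2.02 in btl and 3.57 in trh at summits 28 bp apart. CAP, an adaptor of integrin junctions, had 1.81 in btl and 3.54 in trh, with summits 535 bp apart. CG13024 had 1.91 in btl and 3.17 in trh. A region 2212 bp outside chinmo, a BTB zinc finger gene, had 1.63 in btl and 2.80 in trh. The pair at cno, the afadin of adherens junctions, and Prosbeta2R2 had 1.62 in btl and 2.85 in trh, with summits 1823 bp apart in a btl region 2455 bp wide, so the values there need not belong to 1 site.

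By -log10 q the pairs furthest towards trh also included Evi5 (7.99 in btl and 25.7 in trh), ftz-f1, a nuclear receptor (11.1 and 35.8), scrib (8.01 and 24.5, with summits 682 bp apart) and a region 12219 bp from mIF2 (9.78 and 33.9). The Evi5 pair had no replicate 3 region. At the remaining pairs in this direction replicate 3 had fold enrichments between 1.83 (CAP) and 5.22 (cno), and at dl it had 4.37. Both ftz-f1 and scrib held several other summits in both lists, so these shifts describe single regions and not whole genes.

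Over the pathway lists the median shifts were small or rested on few pairs. The 8 pairs that marked EGF receptor pathway genes had a median shift of 21.3 points in fold enrichment and 28.7 in -log10 q, and the 12 pairs of the Wingless list had 24.7 and 37.0. The 12 pairs of the Dpp list had -13.3 and -25.9, while the 13 pairs of the chitin and luminal list had -0.64 and 0.96 and the 11 pairs of the tracheal factors had 6.49 and 17.2. Over all 2190 pairs the medians were -0.14 in fold enrichment and -0.42 in -log10 q. Several pairs lay in the same gene, so they are not independent of each other.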

How the data were processed

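ChIP-seq peak lists were compared. Per the submitters' processing notes, CASAVA 1.8.2, Bowtie2 2.3.4.1 and 2.3.4.3, SAMtools 1.7 and 1.9, Picard, MACS2 2.2.4, bedtools and build dm6 were used, with no role given for each. The deposited lists have no header and the narrowPeak layout, from which the columns were read: the authors' score (column 5), the authors' fold enrichment, a linear ratio (column 7), and the authors' -log10 q (column 9). Per the labels, the lists of replicates 1 and 2 were filtered at an IDR of 0.1. Read counts and depth per sample are not given in the sources used here.

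A summit was the region's start plus its deposited offset. Genes came from the RefSeq Release 6 table, which gives no strand, for the 6 chromosome arms. The strongest summit of a gene is the one of highest fold enrichment, and percentiles are within a list. Shared pairs overlapped by at least 1 bp and were matched 1 to 1 by summit distance. Every region called highest confidence (2198) is the intersection of the other 3 lists, so that list was not used. Named genes were the 10 strongest of each class, with no region of the other list in the window (1 driver) or with best summits within 250 bp (both), and the 6 largest shifts per column and direction. Genes of lists, and the loci of the drivers and rib, were named as examples after their values were seen. Members and lists were chosen with earlier results of these data known. Python 3.11.15, numpy 2.4.6, pandas 2.3.3, scipy 1.17.1 and matplotlib 3.10.9 were used, and the counting was tested on simulated lists.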

Additional observations from a re-analysis of the deposited data

How the results depend on the processing

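Of 61 recomputed values, 38 stayed within 1.5 times (counts) or within the 95% interval (shares and rho), and 23 moved further. Shorter lists, gene ends and isolated genes leave fewer sites or genes by construction, and the cause of the other moves was not tested. Counting summits at gene ends only gave 845 genes bound in both and 72.9% of trh genes also bound in btl, and counting any base of a region gave 87.5%. The 1727 genes whose window overlaps no other gene gave 146 in both, 237 in btl only, 42 in trh only and 77.7%. The btl list shortened by column 7 gave 1056 in both, 837 in btl only, 876 in trh only, 54.7%, 1103 shared pairs, a column 7 rho of 0.214 with 49.8% of pairs shifted, and a column 9 rho of 0.205. Shortened by column 9 it gave 1048 in btl only, 757 in trh only, 60.8%, 1303 pairs and a column 7 rho of 0.474 with 37.5% shifted. A reciprocal overlap of 50% gave 1045 pairs and a column 9 rho of 0.204. No paired analysis was possible because each list merges replicates 1 and 2, and for the same reason no replicate could be left out. Depth and replicate spread limit every value and are unknown.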

Other observations

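The 10 genes with the most summits over both lists were chosen after their values were seen, and they are described singly and not as a group. Eip75B, a nuclear receptor induced by ecdysone, held 34 btl summits and 28 trh summits in 113744 bp, with nearest summits 5 bp apart. The nuclear receptor gene ftz-f1, which sets competence for the hormone, held 18 and 18 in 50703 bp, Eip74EF, an ETS factor induced by ecdysone, 19 and 16 in 60654 bp, and tai, a coactivator of the ecdysone receptor, 21 and 11 in 83434 bp. The others of the 10 were bun (27 btl and 16 trh), Pdp1 (17 and 14), pum (21 and 9), rdx (19 and 11), Tlk (13 and 15) and Svil (19 and 8). Among them Tlk, a chromatin kinase, was the 1 gene with more trh than btl summits. The strongest btl and trh summits of Eip75B lay 22319 bp apart, with 10.5 in btl and 3.54 in trh.

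By chromosome, genes bound in either list ranged from 33.4% on 2R to 38.3% on 3L, and 42 of the 80 genes on chromosome 4 (52.5%) were bound. Genes bound in trh only were 7 of 80 on chromosome 4 (8.75%, Wilson interval 4.30 to 17.0%) and 1.27% on 3R (interval 0.941 to 1.70%). Among other gene types, 30 of 290 tRNA genes were bound in both, 76 in btl only and 14 in trh only, and 115 of 1959 long noncoding RNA genes were bound in both, 232 in btl only and 35 in trh only. Among protein-coding genes the shares were 11.9%, 21.5% and 2.02% in that order. Noncoding genes often lie inside or beside protein-coding genes, so a summit can mark both.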
